A study of Mus musculus with 6 samples.

Results

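The genes described here encode the cytochrome P450 monooxygenases (Cyp), the flavin-containing monooxygenases (Fmo), the carboxylesterases (Ces) and the soluble glutathione transferases of the alpha, mu, pi, theta and omega classes (Gsta, Gstm, Gstp, Gstt and Gsto). Members were the mouse protein-coding genes whose symbol is one of these stems followed by a number, without Cyp51, a sterol synthesis enzyme, and Cyp2f2, a club cell marker. The annotation holds 144 such genes. The count table, which came to 20687 gene symbols in all, had rows for 93 of them. The other 51 were not analysed here, among them Cyp1a2, Cyp3a11, Cyp7a1, Cyp19a1 and Gstt4.

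RNA was sequenced from 6 samples, 3 of the KP cell line and 3 of lung from C57BL/6 mice. The mice had received 100000 KP cells through the tail vein 28 days before the lungs were taken, and each lung sample pooled 3 mice of an independent experiment. KP is the name the labels give to the mouse line, whose strain is also given as C57BL/6. They give neither its genotype nor the age and sex of the mice. The lungs were digested with collagenase before extraction, and the labels repeat that protocol for the cell line samples, which are described as triplicates with no word on separate cultures. P-values therefore measure the spread between these samples, which may be technical in the cell line. The design held no lung without KP cells, so enzymes of normal lung and any change that the injected cells brought cannot be told apart. Whole lung also mixes cell types, so that fewer cells of a type and less RNA per cell cannot be told apart.

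P450 enzymes and flavin-containing monooxygenases add oxygen to small molecules, and carboxylesterases split esters and amides, which together is called phase 1 metabolism. Glutathione transferases then attach glutathione to reactive products, a phase 2 step that makes them more soluble. The liver is the main site of these enzymes, while the lung has its own set in club cells, alveolar epithelium and endothelium, which meets inhaled compounds and also handles fatty acids, sterols and retinoids.

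Estimated counts per sample came to between 17786758 and 22862396, and 3 counts, the most that a count of 0 allows, to between 0.131 and 0.169 CPM (counts scaled to a common library size) on these totals. Such limits and the counting intervals below cover counting error only. The CPM values of genes below use TMM-scaled library sizes instead of totals. A library stood apart in each group. Across all genes tested, log2 CPM correlated at 0.985 between lung replicates 1 and 3 and at 0.939 and 0.914 between replicate 2 and each of these, and at 0.996 between cell line replicates 2 and 3 against 0.965 and 0.964 for replicate 1. Lung replicate 2 differed from the other lungs by transcript length, as described below for the members. Marker genes matched the labelled tissue: the alveolar type 2 list summed to between 15728 and 22234 CPM in lung and to 153 to 155 CPM in the cell line, where Sftpa1, Sftpd and Slc34a2 had 0 counts.

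Most members measured were higher in lung than in the KP line. Of the 93 with rows, 64 had enough counts to be tested, and 49 of these were higher in lung, 3 were lower and 12 did not pass the threshold (edgeR quasi-likelihood test, Benjamini-Hochberg adjusted p below 0.05 over all genes). Among all 15212 genes tested, 31.3% were higher, 17.5% were lower and 48.8% passed in either direction. With library size alone as the scaling, which raised the median log2 fold change of all genes by 0.23, 75.1% of all calls were higher against 64.1% here, and the members gave 49 higher and 2 lower. The median log2 fold change, lung minus cell line, was 4.16 over the members tested, or 4.11 when each gene at 0 counts takes its bound, against 0.08 over all genes. These figures describe the members that passed a filter on low counts, and 28 of the 49 higher genes had fewer than 10 counts in every cell line sample and could pass it through lung alone. In the other 21, at least 1 cell line sample held 10 counts or more. Cyp2d22, Cyp2c65, Gstm6, Gstm7 and Gstt1 were among these 21 but had a cell line sample below 10 counts, so they too relied on lung. When every sample had to hold at least 10 counts, 29 members were tested and 16 of them were higher. Under that setting 2555 of all 11994 genes tested were higher, also a smaller share than the 31.3% above. The share of higher members and their median thus depend on genes that were near 0 in the cell line. Leaving out each sample in turn kept 47 of the 49 higher calls and 2 of the 3 lower ones in all 6 fits.

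The groups were separate in most members. All 3 lung samples lay above all 3 cell line samples in 51 of the 64 members tested, against 35.6% of all genes, and the reverse held in 4 members, against 26.6%. The same filter on low counts limits these figures. The 28 higher genes with fewer than 10 counts in every cell line sample passed it through lung, which favours this order. Of the 93 members with rows, 57 reached at least 1 CPM in all 3 samples in lung, 22 in the cell line and 21 in both. Of all 20687 gene symbols, 13894, 11553 and 11297 reached that level.

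**Figure D1:**
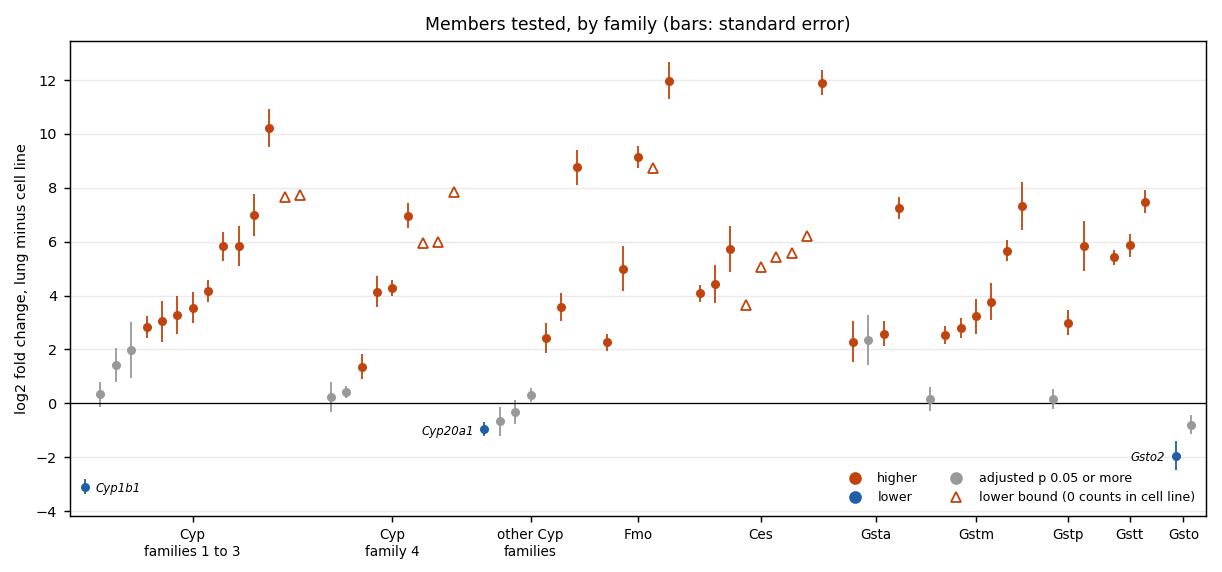
Log2 fold change, lung minus cell line, with its standard error for the 64 members tested, ordered by family. Open triangles give lower bounds for the 11 genes with 0 counts in the cell line, and the 3 members below the line that passed the test are Cyp1b1, Cyp20a1 and Gsto2.

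Set on a scale that allows for transcript length (TPM, length-scaled abundance as a share of the library), the members summed to 3597, 3508 and 3664 TPM in lung replicates 1, 2 and 3 and to 1762, 1229 and 1247 TPM in cell line replicates 1, 2 and 3. The groups did not overlap, and the exact two-sided permutation test gave p = 0.1, the smallest that 3 against 3 samples allow. The makeup differed more than the total. In the cell line, Gsto1 alone held 52.3% of the summed TPM of members and Gstp1 a further 20.9%. In lung no single gene was as dominant, with Gsta4 at 14.7%, Gsto1 at 12%, Gstm1 at 9.83% and Gstp1 at 8.94%. Glutathione transferases made up the greater part in each sample, at 2191, 2750 and 1956 TPM in lung and 1553, 1068 and 1088 TPM in the cell line.

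**Figure D2:**
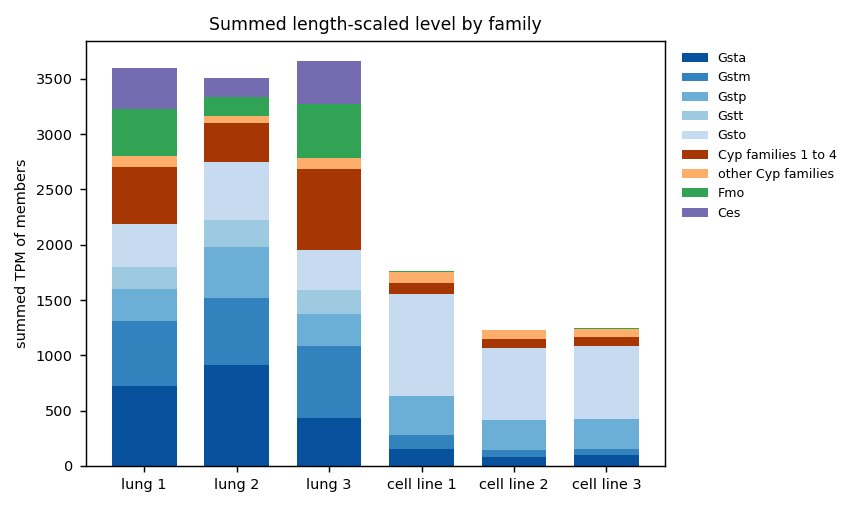
Summed TPM of the members in each sample, stacked by family. The lung bars reach 3508 to 3664 TPM and the cell line bars 1229 to 1762 TPM, and the green Fmo and purple Ces blocks are visible in lung only.

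Replicate 2 of the lungs bears on how each family is read. Its deviation from the mean of lung replicates 1 and 3, on the log2(CPM + 0.5) scale, fell with the length of the transcripts, with a Spearman coefficient of -0.71 over the 64 members and -0.81 over all genes. These are coefficients across genes of the same libraries, and no p is given. Glutathione transferases, with a median length of 1.14 kb, were above the other lungs in this replicate in 18 of 19 cases, by a median of 0.75. The 5 Fmo genes tested, with a median length of 2.60 kb, were below in every case, by a median of -0.69. Within the cell line, 16 of 19 glutathione transferases were higher in replicate 1 than in the mean of replicates 2 and 3, by a median of 0.47 on the same scale. How much of each family's difference between groups these libraries carry was examined by leaving them out, and the values are given where they mattered.

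**Figure D3:**
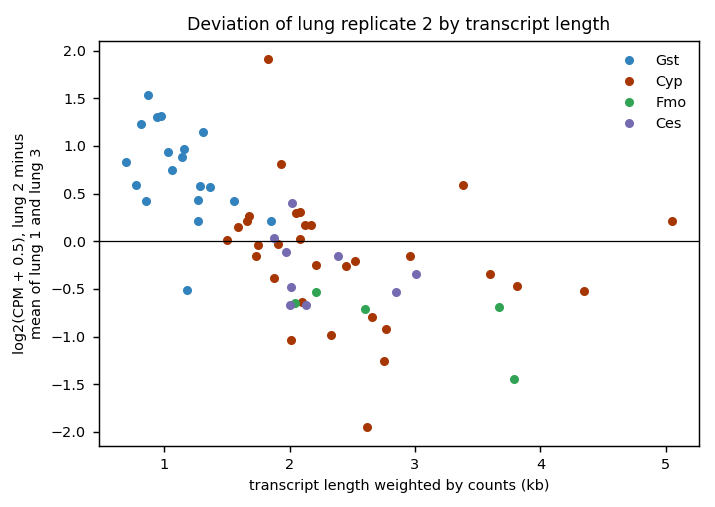
Deviation of lung replicate 2 from the mean of lung replicates 1 and 3 (vertical axis, log2 of CPM + 0.5) against count-weighted transcript length in kilobases for the 64 members tested. The short glutathione transferases lie above 0 in 18 of 19 cases and the 5 Fmo genes lie below it.

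P450 families 1 to 3 hold the enzymes best known for drugs, hydrocarbons and other foreign compounds. Of 60 genes, 24 had rows and 15 were tested, of which 11 were higher in lung, 1 was lower and 3 did not pass. Cyp1b1, an extrahepatic enzyme that oxidises polycyclic hydrocarbons and oestradiol, stood against the rest. It lay at 9.47, 12.7 and 12.5 CPM in lung replicates 1, 2 and 3 and at 75.1, 109 and 111 CPM in the cell line. Every cell line value was above every lung value, and the log2 fold change was -3.09 (with SE 0.28 and edgeR adjusted p = 8.08e-05). Cyp1b1 made up 39.1% of the summed TPM of P450 families 1 to 4 in the cell line.

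Cyp1a1, its relative in the same family and the classic target of the aryl hydrocarbon receptor, was low and uneven. Lung replicates 1, 2 and 3 stood at 1.16, 0.619 and 10.8 CPM, and the cell line at 0.513, 1.56 and 1.11 CPM. The high value was that of lung replicate 3, the groups overlapped, and the gene did not pass the test (log2 change 1.98 with SE 1.04 and edgeR adjusted p = 0.150). The bases upstream of both starts are shown because both genes are textbook targets of this receptor, which binds the core GCGTG. They are the 250 bases before the start, 5′ to 3′ along the gene, from RefSeq on GRCm38.p6, and capitals mark the core or its reverse complement. The Cyp1b1 window is chr17:79715062-79715311 on the minus strand and the Cyp1a1 window chr9:57697363-57697612 on the plus strand.
Cyp1b1: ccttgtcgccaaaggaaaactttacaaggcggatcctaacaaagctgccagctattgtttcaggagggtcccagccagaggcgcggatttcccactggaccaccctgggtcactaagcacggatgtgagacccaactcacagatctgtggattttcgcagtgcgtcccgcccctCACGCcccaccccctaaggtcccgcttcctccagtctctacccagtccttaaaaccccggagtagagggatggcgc
Cyp1a1: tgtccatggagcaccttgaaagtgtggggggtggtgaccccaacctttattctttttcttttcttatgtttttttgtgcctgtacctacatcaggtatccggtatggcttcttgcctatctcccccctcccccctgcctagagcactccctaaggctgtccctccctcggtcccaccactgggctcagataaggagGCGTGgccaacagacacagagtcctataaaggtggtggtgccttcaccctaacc

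Cyp2b10, the phenobarbital-induced P450 of mouse liver, showed the opposite pattern. It stood at 53.9, 66.4 and 85.4 CPM in lung, while the cell line held 3 counts in replicate 1 and none in the other replicates. The ratio of the groups was 1294 (95% counting interval 443 to 6279, edgeR adjusted p = 3.09e-05). The upstream windows of Fmo2, examined in the same way, held no GCGTG core. Of the longer windows counted below, 18.9% of those of members and 32.4% of those of all genes held it. The upstream window of Cyp2b10, chr7:25897408-25897657 on the plus strand, is shown beside the other pair because it holds the same core 2 times.
Cyp2b10: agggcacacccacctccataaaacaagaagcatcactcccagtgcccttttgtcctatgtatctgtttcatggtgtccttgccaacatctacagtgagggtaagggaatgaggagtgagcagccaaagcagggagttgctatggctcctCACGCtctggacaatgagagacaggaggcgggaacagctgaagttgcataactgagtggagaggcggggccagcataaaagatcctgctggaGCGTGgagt

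Cyp2s1, an extrahepatic P450 of epithelia, was present in both groups. Lung stood at 84.2, 41.0 and 116 CPM and the cell line at 11.9, 12 and 9.80 CPM, with lung replicate 2 the lowest of the lungs but still above the cell line. The log2 fold change was 2.84 (with SE 0.40 and edgeR adjusted p = 0.000639). Cyp2d22, a relative of the human drug-metabolising CYP2D6, stood at 20.3, 12.8 and 30.0 CPM in lung and at 0.467, 0.461 and 0.158 CPM in the cell line, a log2 fold change of 5.83 (with SE 0.54 and edgeR adjusted p = 8.24e-05). The groups of this gene did not overlap either.

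Cyp2e1 and Cyp2a5, chosen after their values were seen, had 0 counts in the cell line and uneven lungs. Cyp2e1, which oxidises ethanol and small solvents, stood at 3.98, 21 and 6.79 CPM in lung, at least 204-fold higher against a floor of 3 counts over the group. Cyp2a5, the coumarin hydroxylase, stood at 3.35, 4.38 and 25.4 CPM, at least 213-fold higher by the same floor. The high lung was replicate 2 for Cyp2e1 and replicate 3 for Cyp2a5, and without that sample the bounds were 104-fold and 74.5-fold. Of the 31-base words in Cyp2a5 transcripts, 44.9% also occur in Cyp2a4, so the split of reads between these genes is uncertain.

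P450 family 4 hydroxylates fatty acids and eicosanoids. Of 20 genes, 15 had rows and 9 were tested, with 7 higher in lung, none lower and 2 not past the threshold. Cyp4b1, an enzyme abundant in lung that activates several lung toxicants, was the leading member, at 37.5% of the summed lung TPM of families 1 to 4. Lung stood at 174, 159 and 249 CPM and the cell line at 2.29, 0.864 and 1.42 CPM. The lungs were all far above the cell line, with a log2 fold change of 6.97 (with SE 0.46 and edgeR adjusted p = 3.06e-05).

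The 4f genes, which act on leukotrienes and long fatty acids, were not alike. Cyp4f18, the leukotriene hydroxylase of mouse neutrophils, stood at 22.9, 28.5 and 24.7 CPM in lung against 1.31, 1.61 and 1.0 CPM in the cell line (log2 change 4.28 with SE 0.31 and edgeR adjusted p = 3.50e-05). Cyp4f16 stood at 26.7, 32.2 and 30.6 CPM in lung and at 26.0, 20.9 and 19.8 CPM in the cell line, which did not pass (log2 change 0.42 with SE 0.24 and edgeR adjusted p = 0.170). Its groups were separate by a narrow gap, and it shares 23.1% of its 31-base words with Cyp4f37. Cyp4f13 stood at 16.5, 18.1 and 19.5 CPM in lung and at 12.7, 4.23 and 4.16 CPM in the cell line, with replicate 1 of the cell line near the lungs. Its log2 fold change of 1.36 (with SE 0.46 and edgeR adjusted p = 0.0386) lost the threshold in 6 alternatives, with adjusted p between 0.0723 and 0.13, and was 2.10 without cell line replicate 1. Cyp4f14, Cyp4f15 and Cyp4f39, chosen after their values were seen, had 0 counts in the cell line and were at least 230-fold, 62.4-fold and 63.9-fold higher in lung.

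Summed over families 1 to 4, the members stood at 541, 503 and 732 CPM in lung and at 165, 164 and 162 CPM in the cell line, giving a ratio of 3.62 (p = 0.1, exact permutation test). On the TPM scale the ratio was 5.96.

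The other P450 families mostly serve sterols, bile acids, steroid hormones, vitamin D and retinoic acid. Of 18 genes, 14 had rows and 7 were tested, with 3 higher, 1 lower and 3 not past. Over all genes tested, 31.3% were higher and 17.5% lower, and 7 genes are too few to set apart from these shares. The sum of these families showed no separation: 99.2, 90.7 and 112 CPM in lung against 132, 99.0 and 99.3 CPM in the cell line, giving a ratio of 0.916 (p = 0.6, exact permutation test). On the TPM scale the ratio turned to 1.06.

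Cyp27a1, the mitochondrial sterol hydroxylase of the alternative bile acid route, stood at 16.6, 16.2 and 19.6 CPM in lung and at 2.71, 0.922 and 0.738 CPM in the cell line, where replicate 1 was the highest. The log2 fold change was 3.57 (with SE 0.51 and edgeR adjusted p = 0.000730) and 4.38 without that replicate. Cyp7b1, the oxysterol hydroxylase that acts on hydroxycholesterols, stood at 10.2, 10.9 and 9.19 CPM in lung with a single count in the cell line, a ratio of 586 (95% counting interval 105 to 23196, edgeR adjusted p = 3.73e-05). Cyp46a1, the cholesterol hydroxylase best known from brain, was near the floor in both groups, at 0.799, 0.752 and 0.779 CPM in lung and 0.0933, 0.115 and 0.211 CPM in the cell line (log2 change 2.43 with SE 0.55 and edgeR adjusted p = 0.00676). Cyp39a1, another oxysterol hydroxylase, stood at 23.8, 20.8 and 26.4 CPM in lung and 24.3, 16.7 and 16.6 CPM in the cell line and did not pass (log2 change 0.30 with edgeR adjusted p = 0.365). Its groups overlapped through cell line replicate 1.

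Cyp20a1, a P450 with no settled substrate, was lower in lung. It stood at 41.8, 33.2 and 37.3 CPM in lung and at 93.8, 62.7 and 63.3 CPM in the cell line, with every cell line sample above every lung. The log2 fold change was -0.97 (with SE 0.26 and edgeR adjusted p = 0.0154), and with library size alone as the scaling the adjusted p was 0.0547. Cyp20a1 made up 71.6% of the summed TPM of these families in the cell line and 36.4% in lung. Cyp26b1, which breaks down retinoic acid and was chosen after its values were seen, stood at 4.11, 5.71 and 16.7 CPM in lung and 8.77, 15.9 and 17.1 CPM in the cell line. The groups overlapped through lung replicate 3, and it did not pass (log2 change -0.66 with SE 0.54 and edgeR adjusted p = 0.346).

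**Figure D4:**
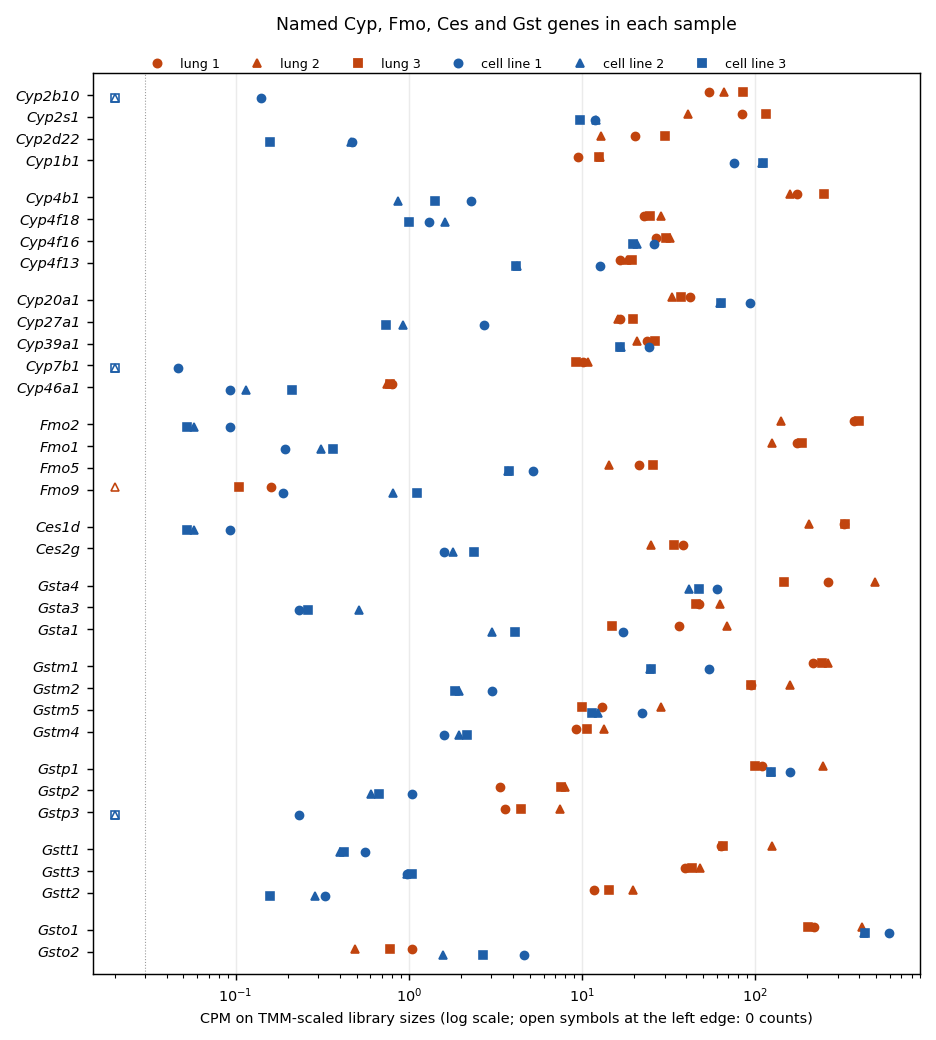
CPM in each of the 6 samples for the 34 members that the naming rule chose and that had counts in the cell line, on a log axis, with open symbols at the left edge for 0 counts. Lung symbols lie to the right of the cell line symbols in most genes, while Cyp1b1, Cyp20a1, Gsto1, Gsto2 and Fmo9 show the reverse order.

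The flavin-containing monooxygenases oxidise nitrogen and sulphur in drugs and dietary amines. All 7 genes had rows and the 5 tested were all higher in lung. Every tested gene except Fmo5 had fewer than 10 counts in every cell line sample and could pass the filter through lung alone. With at least 10 counts required in every sample, only Fmo5 was tested. Fmo2, the main form of lung in many mammals, stood at 373, 141 and 396 CPM in lung and at 0.0933, 0.0576 and 0.0527 CPM in the cell line, which is 4 counts in all. The lungs were above the cell line throughout, with replicate 2 the lowest, and the log2 fold change of 11.98 (with SE 0.68 and edgeR adjusted p = 2.11e-05) rested on those few counts. Fmo1, an abundant form in mouse liver and kidney, stood at 174, 125 and 187 CPM in lung and 0.193, 0.310 and 0.367 CPM in the cell line (log2 change 9.15 with SE 0.41 and edgeR adjusted p = 1.18e-05). On the TPM scale Fmo2 stood at 205, 58.1 and 227 TPM and Fmo1 at 180, 100 and 207 TPM in lung replicates 1, 2 and 3. Over all transcripts of each gene, Fmo2 was thus above Fmo1 in replicates 1 and 3 and below it in replicate 2. The order need not hold for coding transcripts alone. The coding Fmo1-201, chosen after its values were seen, held 67.9%, 63.8% and 64.5% of Fmo1 abundance, a larger share than Fmo2-201 held of Fmo2, given below.

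Fmo5, which inserts oxygen next to carbonyl groups, was the form with the highest level in the cell line, at 73.2% of the family TPM there. It stood at 21.3, 14.3 and 25.7 CPM in lung and 5.23, 3.73 and 3.80 CPM in the cell line (log2 change 2.26 with SE 0.32 and edgeR adjusted p = 0.000720). Fmo9 had too few counts to be tested and ran the other way, at 0.160, 0 and 0.104 CPM in lung and 0.187, 0.806 and 1.11 CPM in the cell line. The summed level of the family was 592, 297 and 643 CPM in lung and 5.70, 5.08 and 5.39 CPM in the cell line, giving a ratio of 94.8 (p = 0.1, exact permutation test).

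Part of the Fmo2 signal came from a transcript that keeps an intron. Fmo2-206, annotated as a retained intron, held 45.5%, 64.9% and 44.9% of the length-scaled Fmo2 abundance in lung replicates 1, 2 and 3. The coding transcript Fmo2-201 held 48.9%, 26.3% and 48.1%. With protein-coding transcripts alone the log2 fold change of Fmo2 was 12.76, which rested on 1 count in the cell line, in Fmo2-202. The retained intron held 3 counts there. These transcripts were chosen after their values were seen.

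Carboxylesterases hydrolyse ester drugs and stored lipids. Of 19 genes, 14 had rows and 9 were tested, and all 9 were higher in lung. All but Ces1d and Ces2g reached no more than 5.19 CPM in any lung sample. Every tested gene except Ces2g had fewer than 10 counts in every cell line sample and could pass the filter through lung alone. With at least 10 counts required in every sample, only Ces2g was tested. Ces1d, a triacylglycerol hydrolase of liver, fat and lung, carried the family. It stood at 325, 206 and 330 CPM in lung and at 0.0933, 0.0576 and 0.0527 CPM in the cell line, again 4 counts in all. The groups lay far apart (log2 change 11.90 with SE 0.47 and edgeR adjusted p = 1.18e-05), and Ces1d held 88.9% of the lung TPM of the family.

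Ces2g led in the cell line with 92.2% of a small family total. It stood at 38.3, 24.9 and 34.1 CPM in lung and 1.59, 1.79 and 2.37 CPM in the cell line (log2 change 4.08 with SE 0.32 and edgeR adjusted p = 4.54e-05). Ces1e stood at 3.48, 2.92 and 5.19 CPM in lung and was not counted in the cell line, which makes it at least 74.4-fold higher. The smallest such bound among the 11 higher members at 0 counts was 12.7-fold, for Ces3a. Lung samples summed to 376, 242 and 382 CPM over the family and cell line samples to 1.73, 1.90 and 2.48 CPM, giving a ratio of 164 (p = 0.1, exact permutation test).

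Glutathione transferases were present in both groups, and here the classes parted. All but Gstt4 of the 20 genes had rows, all 19 were tested, and 14 were higher, 1 was lower and 4 did not pass. Summed levels were 1148, 1978 and 1016 CPM in lung and 920, 638 and 652 CPM in the cell line, giving a ratio of 1.87 (p = 0.1, exact permutation test). Lung replicate 2 was the highest of all samples, and the log2 ratio of 0.91 was 0.55 without it.

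The alpha class, which conjugates lipid peroxidation products and steroids, summed to 348, 624 and 209 CPM in lung and 78.4, 45.2 and 51.7 CPM in the cell line. Gsta4, the transferase for hydroxynonenal, made up most of it. Lung stood at 263, 490 and 147 CPM and the cell line at 60.2, 41.7 and 47.2 CPM, with a spread among lungs in which replicate 2 was the highest and replicate 3 the lowest. The groups did not overlap (log2 change 2.59 with SE 0.45 and edgeR adjusted p = 0.00187), and without lung replicate 2 the log2 fold change was 1.98. Gsta3, which detoxifies aflatoxin in mice, stood at 47.5, 63.0 and 45.6 CPM in lung and 0.233, 0.518 and 0.263 CPM in the cell line (log2 change 7.26 with SE 0.40 and edgeR adjusted p = 1.94e-05).

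The bases before the Gsta3 start, chr1:21240335-21240584 on the plus strand of GRCm38.p6, are shown since this gene is a known target of the antioxidant-responsive factor encoded by Nfe2l2. Capitals mark the only match to TGACNNNGC, the core of the antioxidant response element, on either strand.
Gsta3: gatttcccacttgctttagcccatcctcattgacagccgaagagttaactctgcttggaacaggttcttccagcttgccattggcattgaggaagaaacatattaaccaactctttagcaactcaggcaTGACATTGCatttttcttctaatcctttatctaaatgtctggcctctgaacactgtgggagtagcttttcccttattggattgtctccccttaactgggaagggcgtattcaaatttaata

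Gsta1 was the uncertain member of the class. It stood at 36.2, 68.4 and 14.9 CPM in lung and at 17.2, 3.04 and 4.13 CPM in the cell line, so that replicate 1 of the cell line lay above replicate 3 of the lungs. The log2 fold change of 2.29 (with SE 0.77 and edgeR adjusted p = 0.0377) ranged from 1.59 without lung replicate 2 to 3.46 without cell line replicate 1, and the call was lost in 4 of 6 such fits, with adjusted p up to 0.142. Gsta1 also shares 92.9% of its 31-base words with other genes, and 80.3% of its words occur in the predicted gene Gm3776, which stood at 26.0, 49.7 and 10.8 CPM in lung and 22.2, 2.89 and 1.83 CPM in the cell line. Gsta2, chosen after its values were seen and with 60.7% of its words shared, did not pass (log2 change 2.35 with edgeR adjusted p = 0.0686).

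The mu class was higher in lung in 6 of 7 genes. Gstm1, its main member, stood at 217, 265 and 243 CPM in lung and 54.5, 24.6 and 25 CPM in the cell line, where replicate 1 was the highest. The log2 fold change was 2.80 (with SE 0.38 and edgeR adjusted p = 0.000510), and 28.8% of its words are shared, most of them with the pseudogene Gstm2-ps1. Gstm2 stood at 94.4, 159 and 94.8 CPM in lung and 3.03, 1.96 and 1.84 CPM in the cell line (log2 change 5.66 with SE 0.39 and edgeR adjusted p = 3.11e-05). Gstm4 was a minor form, at 9.19, 13.4 and 10.7 CPM in lung and 1.59, 1.96 and 2.16 CPM in the cell line (log2 change 2.54 with SE 0.32 and edgeR adjusted p = 0.000374). Gstm5 was the exception, at 13.0, 28.7 and 9.98 CPM in lung and 22.1, 12.4 and 11.4 CPM in the cell line. Its groups overlapped (log2 change 0.17 with SE 0.45 and edgeR adjusted p = 0.773), and the log2 fold change was -0.47 without lung replicate 2.

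The pi class acts on many electrophiles and is often abundant in tumour lines. Gstp1 stood at 110, 246 and 99.5 CPM in lung and 160, 123 and 124 CPM in the cell line. Only lung replicate 2 lay above the cell line samples, and the gene did not pass (log2 change 0.16 with SE 0.38 and edgeR adjusted p = 0.743). Without lung replicate 2 the log2 fold change was -0.43 (edgeR adjusted p = 0.0818), and without that sample and cell line replicate 1 together it was -0.24 with an adjusted p of 0.0396 in the same edgeR test. Gstp2 stood at 3.38, 7.94 and 7.60 CPM in lung and 1.04, 0.606 and 0.672 CPM in the cell line, and was called higher (log2 change 3.00 with SE 0.48 and edgeR adjusted p = 0.00122). Gstp3 stood at 3.61, 7.48 and 4.42 CPM in lung, with 5 counts in the cell line, all of them in replicate 1 (log2 change 5.84 with SE 0.93 and edgeR adjusted p = 0.00124). Without that replicate the fitted log2 change was 9.73, against a cell line with no counts.

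Gstp1 and Gstp2 differ by few coding bases, which limits what the level of the rarer gene means. Their coding sequences, 630 bases each, are 98.1% identical with 12 mismatches, and 54.8% of the 31-base words of Gstp2 also occur in Gstp1. The first 90 coding bases are shown, from the transcripts Gstp1-201 and Gstp2-201 of GENCODE M21, with the 6 differing bases in capitals.
Gstp1: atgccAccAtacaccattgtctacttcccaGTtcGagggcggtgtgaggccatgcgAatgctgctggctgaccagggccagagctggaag
Gstp2: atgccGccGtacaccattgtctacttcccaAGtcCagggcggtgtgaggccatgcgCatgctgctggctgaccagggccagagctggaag

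The theta class, which handles small halogenated compounds, was close to absent from the cell line. Gstt1 stood at 63.8, 125 and 65.2 CPM in lung and 0.560, 0.403 and 0.421 CPM in the cell line (log2 change 7.49 with SE 0.44 and edgeR adjusted p = 2.23e-05). Gstt3 stood at 39.1, 47.8 and 43.4 CPM in lung and 0.980, 0.979 and 1.05 CPM in the cell line, which gave 5.43 on the log2 scale. Gstt2 followed at 11.8, 19.8 and 14.4 CPM against 0.327, 0.288 and 0.158 CPM. All 3 genes tested were higher in lung, and their sum was 83.2-fold higher.

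The omega class was the only one with no gene higher in lung. Gsto1, a thiol transferase that also reduces dehydroascorbate and methylated arsenic, had the highest cell line level of all members on the TPM scale, at 913, 648 and 657 TPM. In CPM it stood at 219, 412 and 202 in lung and at 591, 424 and 431 in the cell line, so that the groups were separate only by the gap between lung replicate 2 and cell line replicate 2. It did not pass (log2 change -0.80 with SE 0.35 and edgeR adjusted p = 0.0949). Without lung replicate 2 it did, at -1.25 (edgeR adjusted p = 0.00505). Gsto2, a minor form, stood at 1.04, 0.486 and 0.779 CPM in lung and 4.62, 1.57 and 2.69 CPM in the cell line and was called lower (log2 change -1.94 with SE 0.55 and edgeR adjusted p = 0.0189). The adjusted p was 0.0537 without cell line replicate 1. In the cell line, transcript Gsto2-203 held 53.7%, 86.3% and 53.8% of the length-scaled Gsto2 abundance and had no counts in lung, a split chosen after its values were seen.

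The remaining 29 members with rows had too few counts to be tested. None exceeded 2.55 CPM in any sample, 18 had 0 counts in every cell line sample, and Cyp17a1, a steroid synthesis enzyme, had none in any sample. They include the vitamin D enzymes Cyp24a1 and Cyp27b1, the retinoic acid enzymes Cyp26a1 and Cyp26c1, and the steroid and bile acid enzymes Cyp11a1 and Cyp8b1. Without the filter on low counts, 10 of them were higher in lung and 1, Fmo9, was lower (edgeR adjusted p = 0.0425). Another 17 did not pass, which at so few counts does not show that their levels were alike. Over all 20392 genes in that fit, 5167 were higher and 2985 lower.

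Promoter letters were examined over all members. RefSeq windows from 250 bases before to 50 after the start were found for 113 of the 144 genes, 132 windows in all. GCGTG on either strand was in 18.9% of them and in 32.4% of the 32851 windows of all genes. Among the windows of members higher in lung the share was 24.5%, in 12 of 49. It was 50% in members lower in lung, 2 of 4 windows, and 62.5% in members not past the threshold, 5 of 8 windows. Members with too few counts had the core in 4% of windows and those not analysed here in 10.9%. TGACNNNGC on either strand was in 7.58% of member windows, in 14.3% of those of members higher in lung and in 12.4% of all. The TATA box TATAAA on the gene's strand was in 23.5% of member windows and 8.32% of all. Its share was 10.2% in members higher in lung, 28.0% in members with too few counts and 34.8% in those not analysed here. The motifs were counted separately, and their matches may overlap. A match is a description of letters and not a site.

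The genes that feed, control and follow these enzymes were described as lists, with changes on the log2 scale, lung minus cell line. Over all genes tested, 31.3% were higher and 17.5% lower. Among 12 measured electron donors and haem enzymes, 3 were higher, 3 lower and 6 not past (25% in each direction), with a median log2 fold change of -0.25. Cyb5a, which passes electrons to several P450 enzymes, stood at 138, 263 and 129 CPM in lung and 67.1, 50.5 and 49.1 CPM in the cell line (log2 change 1.67 with edgeR adjusted p = 0.00434). Alas1, the first enzyme of haem synthesis, was higher by 1.53, and Cyb5r1, a cytochrome b5 reductase family member, was lower at -1.95. The value of Cyb5r1 rested on cell line replicate 1, at 383 CPM against 66.8 and 65.9 in the others, and was -0.58 without it. It lost the threshold in 7 of the alternatives, with adjusted p up to 0.103. Por, the reductase that serves all microsomal P450 enzymes and was chosen for that role, stood at 118, 96.8 and 193 CPM in lung and 252, 171 and 173 CPM in the cell line and did not pass (log2 change -0.55 with edgeR adjusted p = 0.200).

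Of 19 tested receptors and repressors that control the enzymes, 5 were higher, 3 lower and 11 not past. Their shares of 26.3% higher and 15.8% lower were close to those of all genes, and the median log2 fold change was -0.10. Nr1h3, the oxysterol receptor, was higher by 2.92, and Ahr, the aryl hydrocarbon receptor, stood at 97.8, 38.0 and 115 CPM in lung and 28.4, 26.1 and 25.7 CPM in the cell line (log2 change 1.65 with SE 0.40 and edgeR adjusted p = 0.00997). Pparg, a fatty acid receptor, was lower at -1.51. Nfe2l2, chosen for its role named above, stood at 176, 154 and 187 CPM in lung and 207, 213 and 214 CPM in the cell line and did not pass (log2 change -0.29 with edgeR adjusted p = 0.312).

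Among 36 other phase 1 enzymes tested, 19 (52.8%) were higher and 5 (13.9%) lower, with a median of 2.45. Cbr2, a carbonyl reductase of lung, stood at 815, 1291 and 1237 CPM in lung with 4 counts in the cell line, Aldh1a1, a retinaldehyde dehydrogenase, was higher by 6.43, and Adh7 was lower at -2.13, or -1.37 without cell line replicate 1. Of 20 other phase 2 enzymes tested, 12 (60%) were higher and 2 (10%) lower, with a median of 2.80. Inmt, an amine methyltransferase, stood at 405, 608 and 429 CPM in lung while the cell line had no counts, which makes it at least 9256-fold higher. Ugt2b34, a glucuronosyltransferase, was higher by 4.03, and by 5.60 without cell line replicate 1. Ugdh, which makes the sugar donor for glucuronidation, was lower at -2.60, with 101, 87.2 and 80.2 CPM in lung and 647, 499 and 484 CPM in the cell line.

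Of 30 other glutathione enzymes, 17 (56.7%) were higher and 4 (13.3%) lower, with a median of 1.48. Gpx3, the secreted peroxidase, was higher by 7.48 and Gpx1, the cytosolic peroxidase, by 1.71, or 1.06 without lung replicate 2. Chac1, which degrades glutathione, was lower at -4.58, and at -2.98 without cell line replicate 1. Among 18 transporters tested, 9 (50%) were higher and 3 (16.7%) lower, with a median of 1.04. Slco3a1 was higher by 2.24 and Abcb1b, a drug efflux pump, lower at -2.08, while Slco2a1, higher by 1.43, lost the threshold in 5 of the 6 fits that left out a sample, with adjusted p up to 0.0955.

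**Figure D5:**
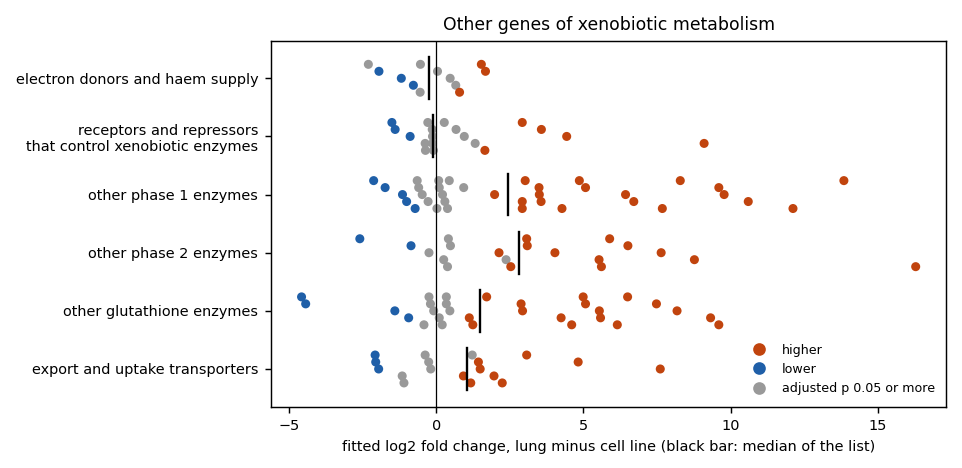
Fitted log2 fold change, lung minus cell line, of the tested genes in 6 lists of related genes, with a black bar at each median. Medians run from -0.25 for electron donors and haem supply to 2.80 for other phase 2 enzymes, and fitted values of genes with 0 counts in the cell line, such as Inmt, are not bounds.

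Most marker lists of lung cell types were higher in lung along with the members. All 12 club and secretory airway markers were higher in lung, at a summed 8836 to 13186 CPM against 1.26 to 3.64 CPM in the cell line, and 6 of the 12 had 0 counts there. Endothelial markers were higher in 10 of 10 cases, at 1348 to 3045 CPM against 13.5 to 30.6 CPM, with lung replicate 2 the lowest lung. Macrophage and monocyte markers were higher in 12 of 13 cases, at 7615 to 9988 CPM against 138 to 258 CPM. Neutrophil markers summed to 200 to 358 CPM in lung and 3.64 to 5.65 CPM in the cell line, and all 8 tested were higher. Of the 15 hepatocyte markers 8 were tested and 7 were higher, at a summed 79.6 to 154 CPM against 44.3 to 45.7 CPM, and Apoc3, Serpina1a, Fgb, Fga, Fgg and Cps1 had 0 counts in the cell line. Mesothelial markers were an exception in their sum, at 831 to 1173 CPM in lung and 1464 to 1506 CPM in the cell line, with 5 of 7 higher and 1, Msln, lower. Fibroblast and smooth muscle markers were higher in 12 of 14 cases and lower in 1, Plin2, at 2341 to 4359 CPM against 840 to 1290 CPM. The part of these cells in the members' differences was not tested.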

How the data were processed

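Per transcript, the authors deposited an estimated count for each of 6 libraries. The submitters' processing notes list, without their roles, Salmon 1.4.0, FastQC 0.11.9, DESeq2 1.32.0 and the build GRCm39. Which annotation release and transcript filter were used is not given in the sources here. Per the labels' protocols, a stranded mRNA kit was used, and a Nugen amplification is also mentioned. The identifier column is headed as genes but holds transcripts, and every sample column was used (0 columns of no sample). Of 76776 transcripts, 76521 (99.67%) matched GENCODE M21, which belongs to GRCm38 and was used for names and lengths only. The other 255, with 0.107% to 0.416% of a sample's counts, were left out of library sizes and tests.

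Transcript counts were summed per gene and rounded. The quasi-likelihood test of edgeR 4.0.16 in R 4.3.3 was run on all genes with robust dispersions, TMM scaling, the expression filter by group and Benjamini-Hochberg adjustment over 15212 genes. The group was the only term, and a gene passed at adjusted p below 0.05. Each adjusted p given is from this test unless another is stated. SE is the log2 fold change divided by the square root of F. CPM uses TMM-scaled library sizes, and TPM uses annotated transcript lengths. Folds against 0 counts are bounds against 3 counts over the group, and ratios against 1 to 3 counts carry 95% exact binomial intervals. The 31-base words of each gene were compared with all other genes of the annotation. The test was also tried on simulated data. Python 3.11.15 and scipy 1.17.1 were used for summaries and permutation tests.

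Members, lists and tests were chosen with earlier results of these data known. Named members were, per family or class, the 3 higher genes with the highest mean lung TPM, up to 4 lower genes, the 2 with the highest mean cell line TPM, and over all members the 3 largest folds at 10 or more CPM in every lung sample. In each list of related genes they were the 2 higher genes with the highest lung TPM and the 1 lower gene with the largest change. Genes named for other reasons are said to be so, and a named member is not reported here. The alternatives tried were scaling by library size alone or by DESeq2 size factors, no filter, a minimum of 10 counts in all samples, limma-voom with limma 3.58.1, the Wald test of DESeq2 1.42.0, the replicate number as a block, length-scaled abundance, protein-coding transcripts only, TPM and CPM on total counts for summed levels, and each sample left out. A fit without both lung replicate 2 and cell line replicate 1 was chosen after seeing the data.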

Additional observations from a re-analysis of the deposited data

How the results depend on the processing

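Over the 20 counts and summed levels and 19 alternatives, 262 of 290 values kept their direction and stayed within 1.5 times the count, or within 1 SD of the log2 ratio, and the exceptions follow. Requiring 10 or more counts in all samples, which removes genes near 0 in the cell line, left 16 members higher, with 6 in P450 families 1 to 4, 1 in the other P450 families, 1 Fmo, 1 Ces and 7 glutathione transferases, and 2555 higher and 1701 lower genes overall. With library size alone, lower calls came to 1728 over all genes and 0 in the other P450 families. Without the filter 1 Fmo gene was lower. For summed levels, the log2 ratio on total counts was 1.75 for all members (1.52 as reported), 2.09 for P450 families 1 to 4 (1.86) and 0.10 for the other P450 families (-0.13). On the TPM scale it was 2.58, 0.09 and, for Ces, 7.91 (7.36), and with protein-coding transcripts only it was 6.08 for Fmo (6.57). Leaving out each sample in turn gave ranges of 47 to 52 members higher and 3 to 4 lower, 4249 to 5190 higher and 1820 to 3773 lower over all genes, 1 to 2 lower in the other P450 families, 0 to 1 Fmo lower, 0 to 2 glutathione transferases lower, and -0.21 to 0.02 for the log2 ratio of the other P450 families. Without lung replicate 2 and cell line replicate 1 together, 5 members and 5425 genes overall were lower, with 1 Fmo and 2 glutathione transferases, the log2 fold change of Gstp1 was -0.24, and the log2 ratio of the other P450 families was 0.09. That fit takes its spread from the closest pair in each group. Beyond what each setting removes, the cause was not tested.

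The replicate numbers gave no sign of pairing: deviations of same-numbered samples correlated at -0.05, 0.09 and -0.10, and not every sample correlated best with its own number. With the number as a block, 50 members were higher and 3 lower, and 4634 and 2526 genes overall. Of 833 values for named genes, 803 stayed on the same side of the threshold. Depth limits the genes near 0 in the cell line, whose fitted folds rest on few counts.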

Other observations

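Cyp51, the sterol demethylase left out of the members, was lower in lung, as Cyp1b1 and Cyp20a1 were, at 91.5, 66.2 and 80.3 CPM in lung replicates 1, 2 and 3 and at 225, 179 and 189 CPM in cell line replicates 1, 2 and 3 (log2 fold change -1.32, SE 0.25, edgeR adjusted p = 0.00268). Cyp2f2, the other gene left out, stood at 710, 573 and 1282 CPM in lung with 2 counts in the cell line.

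Replicate 1 of the cell line was far from replicates 2 and 3 in several redox genes of the lists, which were chosen after their values were seen. Slc7a11, the cystine importer for glutathione synthesis, stood at 451, 37.0 and 36.4 CPM in cell line replicates 1, 2 and 3. Hmox1, a haem oxygenase, stood at 747, 44.6 and 41.8 CPM, and the glucuronosyltransferase Ugt1a6a at 96.0, 10.6 and 9.74 CPM. Mgst3, a microsomal glutathione transferase, ran the other way, at 20.5, 101 and 97.1 CPM. The labels give no difference in handling between these samples, and what sets the replicate apart was not tested.

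Transcript use differed between the groups in a few members, chosen after their values were seen and with no test. Cyp4f17-204 held 83.8%, 88.2% and 87.1% of the length-scaled Cyp4f17 abundance in lung and 39.4%, 56.2% and 45.9% in the cell line, while the gene itself did not pass (log2 fold change 0.22, SE 0.56, edgeR adjusted p = 0.770). Cyp26b1-205 held 86.6%, 100% and 81.6% in lung and 62.5%, 53.7% and 65.7% in the cell line. These shares come from the transcript estimates of the authors' quantification, whose errors are not part of the table.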
